A study of Mus musculus with 12 samples.

Results

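The genes described here are 9 regulators that many embryonic tissues and tumours share: Lin28a, Lin28b, Igf2bp1, Igf2bp2, Igf2bp3, Hmga1, Hmga2, Trim71 and Arid3a. Most of them are low in most adult tissues, but Igf2bp2 and Hmga1 are expressed there too. The 9 genes were taken by symbol from a table of 23284 genes, and all 9 symbols had a row, none of them repeated. The table gives FPKM (sequenced fragments scaled by gene length and library size) for RNA of mouse cells sorted for α7-integrin and VCAM and against CD31 and CD45, a combination used to isolate muscle progenitors. There were 4 groups of 3 libraries, all labelled with the strain 129P2/OlaHsd: cells from teratomas at 3 weeks (teratoma), cells recovered from tibialis anterior muscle 1 month after such teratoma-derived cells had been transplanted there (transplant), cells from whole embryos at E14.5 (embryo), and cells from total hindlimbs of 8-week-old males (adult). The labels name neither the pluripotent line nor the host of the transplants, nor a marker that separates donor from host cells. Embryo and adult cells also differ in the body region sampled, so stage and region cannot be told apart. The label speaks of RNA regulators, but Hmga1, Hmga2 and Arid3a encode DNA-binding proteins.

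LIN28A and LIN28B bind the precursors of let-7 microRNAs and keep them from maturing, in part by recruiting uridylating enzymes. Mature let-7 in turn represses many messages of growing embryonic cells, among them Lin28 itself, Hmga2, the Igf2bp genes, Arid3a and Trim71, the mammalian lin-41. The IGF2BP proteins bind messages such as Igf2 and Myc and steer their stability and translation, and HMGA proteins bend AT-rich DNA. In muscle, Hmga2 and Igf2bp2 are known from proliferating myoblasts.

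The let-7 family shares 1 seed, the bases at positions 2 to 8 that pair with a target. It is shown here because it is the sequence that links these genes, and is printed in capitals in 3 mature forms from RefSeq (GRCm38.p6).
let-7a-5p (chr13:48538239-48538260, minus strand): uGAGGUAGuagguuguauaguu
let-7d-5p (chr13:48536078-48536099, minus strand): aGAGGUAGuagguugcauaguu
miR-98-5p (chrX:151913229-151913250, plus strand): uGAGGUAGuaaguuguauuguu

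The longest annotated 3′ UTR of each gene (GENCODE M21, GRCm38) was searched on the sense strand for CTACCTC, which pairs with all 7 seed bases. All 9 held it, against 9.02% of 21010 genes with a 3′ UTR and 17.7% of the 7440 genes whose 3′ UTR has at least 1500 bases. Lin28b, Igf2bp1, Hmga2 and Trim71 had 4 matches each, Lin28a and Arid3a 2, and Igf2bp2, Igf2bp3 and Hmga1 had 1. At least 3 matches were found in 0.152% of all genes and 0.417% of those with the longer 3′ UTRs. Shortened to TACCTC, the motif occurred 7 times in Hmga2 and 6 times each in Igf2bp1 and Trim71, in 23.4% of all genes and in 44.4% of those with the longer 3′ UTRs. The 9 genes include textbook let-7 targets, so these counts describe how the set is made up, and a match is not evidence of binding. The sites below are 1 per gene for 5 genes on which the results turn and Lin28b, with the match in capitals.
Lin28b (chr10:45381022-45381043, minus strand): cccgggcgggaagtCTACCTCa
Igf2bp1 (chr11:95961778-95961799, minus strand): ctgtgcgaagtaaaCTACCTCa
Igf2bp2 (chr16:22059473-22059494, minus strand): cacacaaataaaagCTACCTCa
Igf2bp3 (chr6:49086787-49086808, minus strand): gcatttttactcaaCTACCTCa
Hmga2 (chr10:120364224-120364245, minus strand): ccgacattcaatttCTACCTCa
Hmga1 (chr17:27563278-27563299, plus strand): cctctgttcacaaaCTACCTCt

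Over all 23 matches in the 9 genes, 14 are followed by an A, a base that strengthens let-7 sites. These include 4 of 4 in Trim71 and 3 of 4 in Igf2bp1, but 1 of 4 each in Lin28b and Hmga2 and 0 of 1 in Hmga1. Mature let-7 was not measured. Of 11 Mirlet7 rows in the table, 9 were listed at 0 in every library. Mirlet7f-1 stood at 155 in teratoma replicate 1 alone and Mirlet7d at 42.0 in adult replicate 3 alone, so these rows give no group pattern.

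Read depth was unknown, since only FPKM were deposited, and no interval for counting error can be given. A 0 in such a table can be a failed estimate: Rpl34, a ribosomal protein gene, was listed at 0 in transplant replicate 3. Embryo replicate 2 held 74 genes at 0 that were at 5 FPKM or more in both its group mates (6 to 27 such genes elsewhere), and of the 6 members tested in the main fit, Arid3a alone had a call that changed without it. All 8 myogenic markers (Pax7, Myf5, Myod1, Itga7, Vcam1, Des, Cdh15 and Chodl) reached 1 FPKM in every group, but at unequal levels. They summed to 131.9 to 165.5 FPKM in embryo, 377.3 to 469.1 in teratoma, 427.5 to 584.7 in transplant and 854.9 to 1018 in adult. Myod1 and Des, with means of 402.8 and 262.9, made up most of the adult sum. Myod1, Des, Itga7 and Vcam1 had their highest mean in adult, and Pax7, Myf5, Cdh15 and Chodl in transplant. Pax7 was lowest in adult, with means of 14.0 in embryo, 23.1 in teratoma, 42.3 in transplant and 9.1 in adult. Correlations across genes between libraries ran from 0.860 to 0.950 within groups and from 0.615 to 0.847 between them. The design text calls the 3 libraries biological replicates, but no label names separate animals. The p-values therefore rest on the spread among 3 libraries per group, which may be technical in part. The main fit pools that spread over all 4 groups, so a pair's p-value also depends on the groups outside it. In bulk RNA, fewer cells of a type and less RNA per cell cannot be told apart.

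Changes were tested with limma on log2(FPKM + 1) in 1 fit of all 12 libraries, over the 12699 genes at 1 FPKM or more in at least 3 libraries. Benjamini-Hochberg adjusted p-values under 0.05 were called, and differences on this scale understate the change of low genes. Of the 9 members 6 passed the filter. Igf2bp2 and Hmga1 were above 1 FPKM in all 12 libraries, whereas Igf2bp1 and Arid3a passed only through embryo and teratoma libraries, and Igf2bp3 and Hmga2 mainly through them, so a difference from adult cells was built into their passing. Lin28a, Lin28b and Trim71 did not pass.

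**Figure D1:**
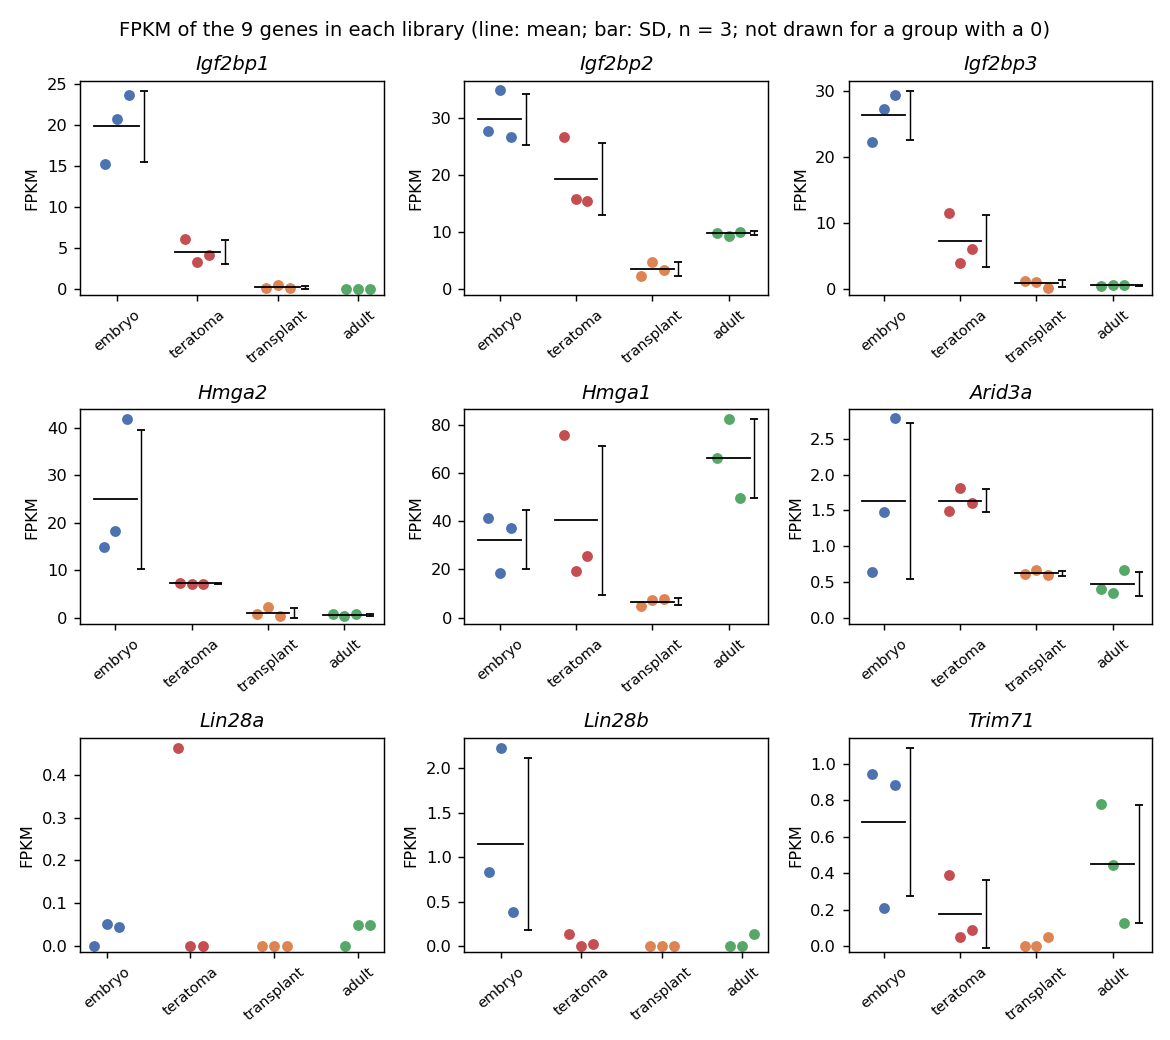
FPKM of each of the 9 genes (vertical axes, linear, scaled per gene) in the 12 libraries by group; points are libraries, lines means and bars SD (n = 3), left out where a library is listed at 0. Igf2bp1, Igf2bp3 and Hmga2 step down from embryo to teratoma to the other groups, Igf2bp2 and Hmga1 are lowest in transplant, and Lin28a, Lin28b and Trim71 stay below 2.5 FPKM.

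The Lin28 genes, which act on let-7, and Trim71, one of its targets, were near the bottom of the scale. Lin28b (chromosome 10 from 45376620 to 45486395) stood at 0.827, 2.23 and 0.380 FPKM in the embryo libraries. It was at 0.140, 0 and 0.0258 in teratoma, 0, 0 and 0 in transplant, and 0, 0 and 0.131 in adult. Each embryo library was above all 9 others, but only 1 reached 1 FPKM.

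Lin28a (chromosome 4 from 134003330 to 134018841), the form typical of pluripotent cells, was highest in teratoma replicate 1 at 0.463, with its 2 group mates at 0. That library also had the highest sum of pluripotency markers of the 3 teratoma libraries, although an embryo library had a higher one. In the other libraries it did not exceed 0.0521, the value of embryo replicate 2, and it was listed at 0 in all 3 transplant libraries. The 8 pluripotency markers Pou5f1, Nanog, Zfp42, Dppa5a, Tdgf1, Utf1, Sall4 and Esrrb summed to at most 1.0 FPKM in a teratoma library, and Pou5f1, Zfp42, Utf1 and Esrrb were listed at 0 in all 3. The highest sums in the other groups were 1.11 in embryo, 0.885 in adult and 0.429 in transplant. None of the 8 reached 1 FPKM in any library.

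Trim71 (chromosome 9 from 114507133 to 114564369), an RNA-binding ubiquitin ligase of early embryos, was at 0.943, 0.211 and 0.886 in embryo and 0.778, 0.445 and 0.128 in adult. It was at 0.390, 0.0497 and 0.0869 in teratoma and 0, 0 and 0.0477 in transplant, where all 3 values were below those of every embryo and adult library. Fitted without the expression filter, Lin28b differed from embryo by -0.95 in adult, -0.93 in teratoma and -1.01 in transplant on the log2 scale (limma adjusted p = 0.00898, 0.0203 and 0.00869). Trim71 differed by -0.69 between transplant and embryo (adjusted p = 0.0303), and Lin28a was called in no comparison. All 3 genes were under 1 FPKM in most libraries, where a fit on this scale has little to resolve.

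The 3 Igf2bp genes, which encode closely related RNA-binding proteins, were highest in embryonic cells and followed 2 patterns. Igf2bp1 and Igf2bp3 fell stepwise to near 0, and Igf2bp2 kept a level in adult cells that transplanted cells did not reach. Igf2bp1 (chromosome 11 from 95957163 to 96005940) was at 15.2, 20.7 and 23.7 FPKM in embryo and 6.17, 3.36 and 4.13 in teratoma. In transplant it was at 0.0972, 0.465 and 0.0845, and in adult at 0, 0.0167 and 0. These 4 ranges do not overlap.

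Igf2bp1 was 4.37-fold lower in teratoma than in embryo, a change of -1.92 ± 0.26 (log2 scale, SE; limma adjusted p = 0.000277). It fell a further 21.1-fold between teratoma and transplant (-2.17 ± 0.26, adjusted p = 0.00022), or 50.1-fold without transplant replicate 2. Against embryo its change was -4.35 in adult and -4.09 in transplant (adjusted p = 1.37e-07 and 4.65e-07). Transplant and adult differed by 0.26 (95% interval -0.31 to 0.83, adjusted p = 0.447). With a pseudocount of 0.1 in place of 1, transplant was the higher by 1.38 (adjusted p = 0.0439; range over the alternatives 0.0439 to 0.784). That pseudocount also enlarged the change of Igf2bp1 to -7.54 in adult against embryo, -6.16 in transplant against embryo and -4.04 in transplant against teratoma, since its low values weigh more there.

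Igf2bp3 (chromosome 6 from 49085223 to 49214957) was at 22.3, 27.3 and 29.5 in embryo and at 11.6, 3.98 and 6.14 in teratoma. It was at 1.26, 1.14 and 0.208 in transplant and at 0.491, 0.569 and 0.557 in adult, where the transplant range encloses the adult one. Teratoma was 3.64-fold below embryo (-1.83 ± 0.34, adjusted p = 0.00205) and transplant 8.35-fold below teratoma (-2.09 ± 0.34, adjusted p = 0.00124). Adult was 48.9-fold below embryo (-4.14 ± 0.34, adjusted p = 1.28e-06), and transplant and adult differed by 0.23 (95% interval -0.51 to 0.96, adjusted p = 0.623).

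Igf2bp2 (chromosome 16 from 22059009 to 22163299), the member that adult tissues also express, was at 27.7, 34.9 and 26.8 in embryo, 26.6, 15.8 and 15.4 in teratoma, 9.85, 9.37 and 10.1 in adult, and 2.26, 4.78 and 3.38 in transplant. All 3 transplant values lie below all 9 others. Transplant was 5.55-fold below teratoma (-2.18 ± 0.25, adjusted p = 0.000158), 8.57-fold below embryo (adjusted p = 4.49e-06) and 2.81-fold below adult (-1.31 ± 0.25, adjusted p = 0.00129). These 3 calls held in each of the 18 refits made for each.

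The upper part of the order of Igf2bp2 was less sharp. Embryo and teratoma differed by -0.63 (95% interval -1.18 to -0.09, adjusted p = 0.0824), which passed without teratoma replicate 1 (-0.88, adjusted p = 0.0235; range 0.0235 to 0.239). Teratoma was above adult by 0.87 (adjusted p = 0.0136), a call that did not hold without teratoma replicate 1 (0.63, adjusted p = 0.0559) or under median-ratio scaling (0.37, adjusted p = 0.221; range 0.00971 to 0.221). Adult was 3.05-fold below embryo (-1.51 ± 0.25, adjusted p = 0.000311; -0.998 under median-ratio scaling, adjusted p = 0.00357).

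The makeup of the family differed along with its level. Summed over the 3 genes, embryo libraries held 65.2 to 82.9 FPKM, teratoma 23.2 to 44.4, adult 9.95 to 10.6 and transplant 3.61 to 6.38. Igf2bp2 made up 33.5% to 42.5% of that sum in embryo, 60.0% to 68.3% in teratoma and 94.1% to 95.2% in adult. In transplant its share was 62.5%, 74.9% and 92.0%, a spread of low values in which 1 library reached nearly the adult share. Igf2bp1 and Igf2bp3 took 23.3% to 29.6% and 32.9% to 36.9% in embryo, and at most 0.168% and 5.72% in adult.

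**Figure D2:**
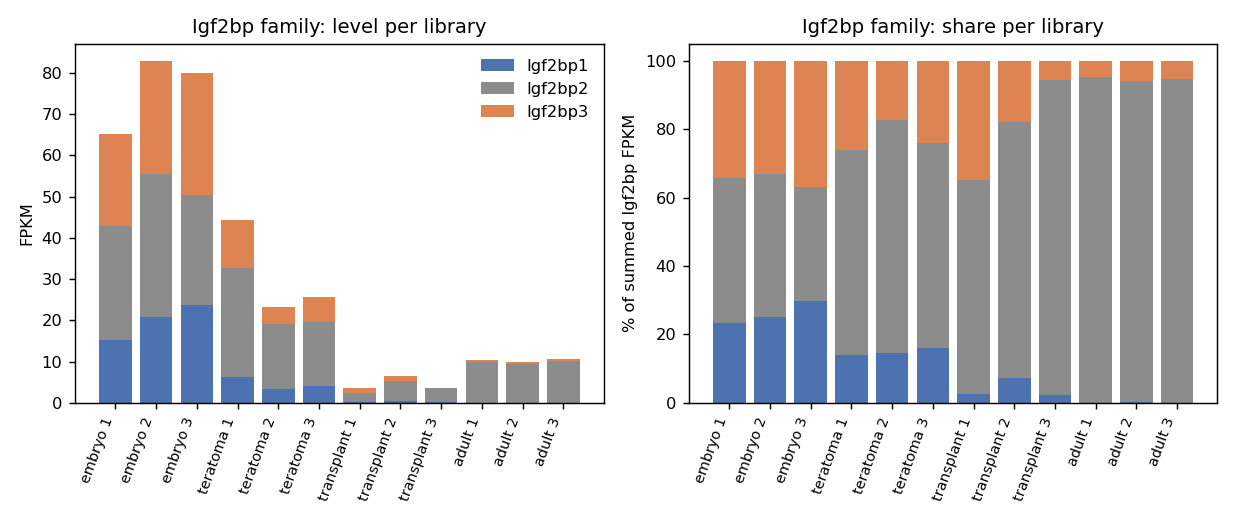
Stacked FPKM of Igf2bp1, Igf2bp2 and Igf2bp3 per library (left) and each gene's percentage of their sum (right). The sum is highest in the 3 embryo libraries (65.2 to 82.9 FPKM) and lowest in the 3 transplant libraries (3.61 to 6.38), while Igf2bp2 takes most of the sum in adult.

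Hmga2 (chromosome 10 from 120361275 to 120476469), a chromatin protein of fetal stem cells, followed Igf2bp1 and Igf2bp3. It was at 14.9, 18.2 and 41.8 FPKM in embryo and at 7.38, 7.10 and 7.16 in teratoma. In transplant it was at 0.669, 2.21 and 0.230, and in adult at 0.668, 0.318 and 0.746. Embryo and teratoma did not overlap with each other or with the remaining libraries, and transplant and adult did. Teratoma was 3.46-fold below embryo (-1.52 ± 0.40, limma adjusted p = 0.0145), a call lost with a pseudocount of 0.1 (-1.63, adjusted p = 0.0907; range 0.00785 to 0.0907). Without embryo replicate 3 the fold was 2.29.

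Between teratoma and transplant Hmga2 fell 6.95-fold (-2.13 ± 0.40, adjusted p = 0.00279), or 16.0-fold without transplant replicate 2. Adult was 43.2-fold and transplant 24.1-fold below embryo (adjusted p = 6.84e-06 and 1.89e-05). Without embryo replicate 3 these folds were 28.7 and 15.9, and without transplant replicate 2 the second was 55.5. Transplant and adult differed by 0.26 (95% interval -0.60 to 1.12, adjusted p = 0.627), with the sign reversed without transplant replicate 2 (-0.13). Hmga2-ps1, a processed copy listed as its own row, was at 1.19, 0 and 0 in embryo and 5.68, 2.63 and 2.16 in teratoma, the reverse order. It was at 3.52, 0.679 and 0.951 in transplant and 3.38, 2.23 and 0.892 in adult, above Hmga2 in each adult library. How reads that both rows share affect the low Hmga2 values, and so the folds against embryo, was not tested.

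Hmga1 (chromosome 17 from 27556497 to 27563674), the broadly expressed relative, went another way: its mean in adult was above that in embryo, without passing the test, and it was lower in transplant than in each other group. It was at 41.2, 18.6 and 37.4 FPKM in embryo, 76.0, 19.5 and 25.6 in teratoma, 66.4, 82.5 and 49.8 in adult, and 4.82, 7.34 and 7.55 in transplant. All 3 transplant values lie below all 9 others. Teratoma overlaps with both embryo and adult, whereas every adult value lies above every embryo value. The spread within teratoma was wide, at 40.4 ± 31.0 (SD, n = 3), with replicate 1 far above its group mates. The level of Hmga1 in teratoma and its place in the order are therefore uncertain, and adult against embryo did not pass in the main fit.

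Hmga1 was 6.14-fold lower in transplant than in teratoma (-2.22 ± 0.44, limma adjusted p = 0.00408), 10.1-fold lower than in adult (-3.14 ± 0.44, adjusted p = 0.000164) and 4.93-fold lower than in embryo (-2.08 ± 0.44, adjusted p = 0.00237). These calls held in each of the 18 refits made for each, although without teratoma replicate 1 the first fold was 3.43. The other 3 comparisons did not pass. Adult against embryo was 1.06 (95% interval 0.10 to 2.01, adjusted p = 0.0605). It passed under median-ratio scaling (1.59, adjusted p = 0.00677), with only these groups fitted (adjusted p = 0.0276), and without teratoma replicate 1 or teratoma replicate 2 (adjusted p = 0.0119 and 0.0432; range 0.00677 to 0.204). Teratoma against adult was -0.92 (95% interval -1.88 to 0.03, adjusted p = 0.105). It passed without teratoma replicate 1 (-1.50, adjusted p = 0.00535) and under median-ratio scaling (-1.45, adjusted p = 0.0144; range 0.00535 to 0.361). Teratoma and embryo differed by 0.13 (95% interval -0.82 to 1.09, adjusted p = 0.855), and the sign reversed without teratoma replicate 1 (-0.44) or embryo replicate 2 (-0.21).

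Arid3a (chromosome 10 from 79927043 to 79955018), a DNA-binding factor first known from B cells, was low everywhere. It was at 0.633, 1.47 and 2.79 FPKM in embryo, 1.49, 1.81 and 1.60 in teratoma, 0.608, 0.658 and 0.595 in transplant and 0.396, 0.341 and 0.659 in adult. The teratoma libraries lie above all transplant and adult libraries, and the embryo range overlaps that of each other group. The change from embryo to adult was -0.77 (adjusted p = 0.0401), and teratoma was above adult by 0.85 (adjusted p = 0.03). The first call was lost in 12 of 17 refits: under median-ratio scaling (adjusted p = 0.112), with only these groups fitted (adjusted p = 0.103), and on leaving out any 1 library other than teratoma replicate 1 or embryo replicate 1 (range 0.00625 to 0.163). The value was -0.46 without embryo replicate 3 and -1.44 with a pseudocount of 0.1. The second was lost in 6 of 17 (range 0.0116 to 0.0869) and was 1.65 with that pseudocount. Transplant and teratoma differed by -0.70 (adjusted p = 0.101; range 0.0495 to 0.211, the lowest without embryo replicate 3), although their values do not overlap. Transplant and embryo differed by -0.62 (adjusted p = 0.105), which passed without embryo replicate 1 (-0.92, adjusted p = 0.0177; range 0.0177 to 0.373).

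Of its relatives, Arid3b was at 1.99 ± 0.860 in embryo, 0.340 ± 0.184 in teratoma, 0.493 ± 0.287 in transplant and 0.643 ± 0.346 in adult. Against embryo it changed by -0.84 in adult, -1.12 in teratoma and -0.98 in transplant (adjusted p = 0.0275, 0.0138 and 0.0168). Arid3c was listed at 0 in 11 libraries. The Trim71 relative Trim32, a ubiquitin ligase of muscle, was at 7.07 ± 1.83, 6.44 ± 0.521 and 6.05 ± 2.53 in embryo, teratoma and transplant and at 1.26 ± 0.266 in adult (-1.82 against embryo, adjusted p = 0.000165). Trim3 was above adult in transplant by 1.06 and in teratoma by 0.73 (adjusted p = 0.00568 and 0.0362), and Trim2 was called in no comparison.

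**Figure D3:**
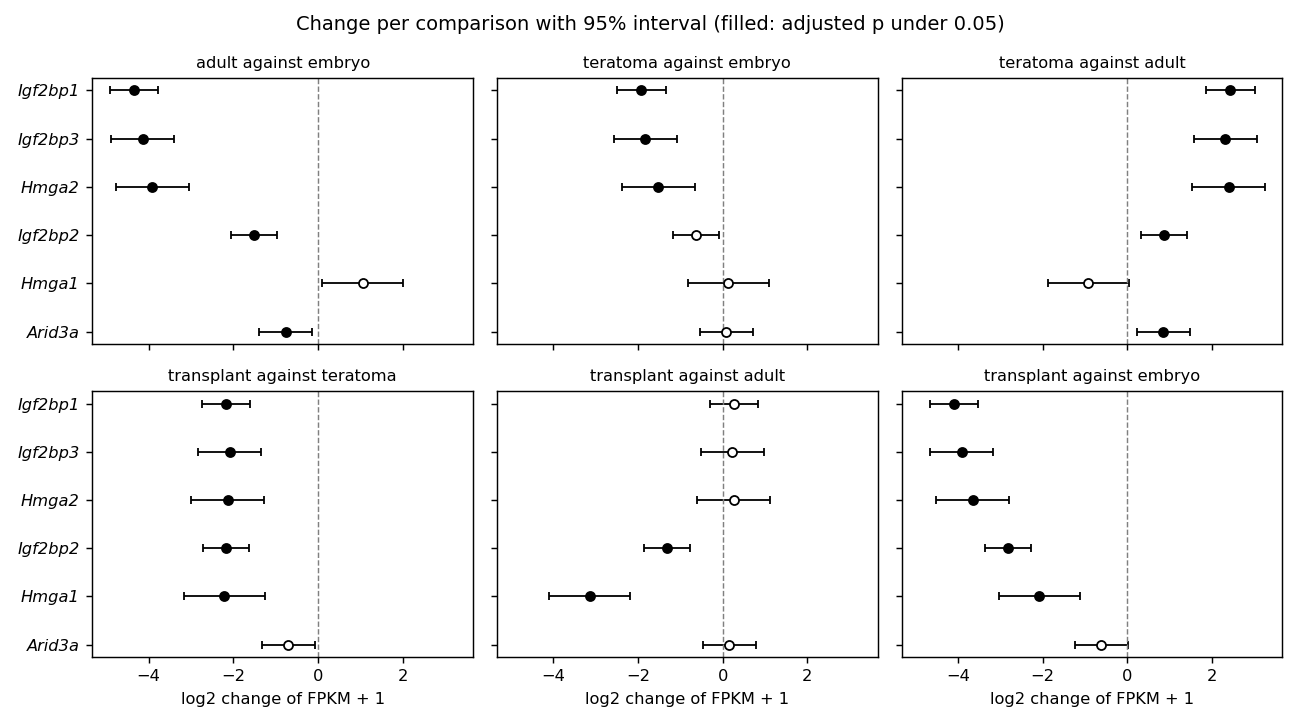
Changes of log2(FPKM + 1) with 95% intervals for the 6 members that passed the filter, in the 6 comparisons; filled points have a limma adjusted p under 0.05. In transplant against teratoma 5 genes lie between -2.22 and -2.09 on this scale, which understates the change of low genes. Their folds of means ran from 5.55 (Igf2bp2) to 21.1 (Igf2bp1). With a pseudocount of 0.1 Igf2bp2 changed by -2.46 and Igf2bp1 by -4.04. In transplant against adult only Igf2bp2 and Hmga1 are filled, both lower in transplant.

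Counted by comparison, the calls among the 6 tested members stood beside a high background. In adult against embryo 5 were called (52.8% of all tested genes were), in teratoma against embryo 3 (26.0%), and in teratoma against adult 5 (45.4%). In transplant against teratoma 5 were called (22.6%), in transplant against adult 2 (44.2%) and in transplant against embryo 5 (42.5%). These comparisons share their groups, and 4 of the 6 genes passed the filter mainly by being high in embryo and teratoma, so the counts are descriptions.

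The scale itself carried a shift between groups. Over all tested genes the median change was -0.42 in adult against embryo, 0.50 in teratoma against adult, -0.28 in transplant against teratoma, 0.23 in transplant against adult and -0.24 in transplant against embryo. Under median-ratio scaling these medians were -0.03, 0.11, -0.02, 0.09 and 0.00. The share of called genes that were higher moved from 30.0% to 50.1%, 80.3% to 52.6%, 18.5% to 44.1%, 61.7% to 51.7% and 35.0% to 51.4% in the same order. Relative to these medians, the changes of Igf2bp1, Igf2bp3 and Hmga2 in the called comparisons kept their direction and call under that scaling.

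The 2 declines, from embryo to adult and from teratoma to transplant, were compared directly with an interaction term, in which 4 of the 6 members were called (38.9% of all tested genes were). Igf2bp1 differed by -4.35 between adult and embryo and by -2.17 between transplant and teratoma, a difference of 2.18 (limma adjusted p = 0.000823), or 3.50 with a pseudocount of 0.1. Igf2bp3 had -4.14 and -2.09, a difference of 2.05 (adjusted p = 0.00551). Hmga2 had -3.91 and -2.13, a difference of 1.78 (adjusted p = 0.0248), which was lost with a pseudocount of 0.1 (2.00, adjusted p = 0.0991). It was also lost without transplant replicate 2 or adult replicate 2 (1.39 and 1.66, adjusted p = 0.053 and 0.055; range 0.0138 to 0.0991). For all 3, teratoma started below embryo, and transplant and adult differed by 0.23 to 0.26, so on this scale the interaction mainly restates that lower start. With a pseudocount of 0.1, Igf2bp1 was -2.12 in teratoma against embryo and 1.38 in transplant against adult, so the end point then adds to its difference.

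Hmga1 had 1.06 between adult and embryo and -2.22 between transplant and teratoma, a difference of -3.28 (adjusted p = 0.00164; range 0.000703 to 0.00545). Igf2bp2 had -1.51 and -2.18, a difference of -0.67 (95% interval -1.44 to 0.10, adjusted p = 0.15). Under median-ratio scaling that difference passed (-0.89, adjusted p = 0.0491; range 0.0491 to 0.322). Arid3a had -0.77 and -0.70, a difference of 0.07 (95% interval -0.82 to 0.95, adjusted p = 0.911), whose sign depended on the setting.

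The 10 genes of let-7 processing, all of which passed the filter, were mostly lower than in embryo or not called. In teratoma against embryo 6 were lower and 0 higher (median -0.59, against 0.01 for all tested genes, of which 26.0% were called). In transplant against embryo 6 were lower and 0 higher (median -0.99, against -0.24, with 42.5% called). In adult against embryo 5 were lower and 0 higher (median -0.68, against -0.42), near the 52.8% called over all genes. Transplant against teratoma gave 2 lower (median -0.31, against -0.28, with 22.6% called). Transplant against adult gave 2 higher and 4 lower (median -0.28, against 0.23, with 44.2% called), and teratoma against adult 2 higher and 1 lower (median 0.07, against 0.50, with 45.4% called).

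Drosha, the nuclease that cuts the primary transcripts, was at 20.0 ± 2.83 in embryo, 12.4 ± 0.652 in teratoma, 8.52 ± 0.441 in transplant and 3.73 ± 0.642 in adult. It fell by 2.15 from embryo to adult (limma adjusted p = 1.19e-06), whereas its partner Dgcr8 differed by -0.02 there (adjusted p = 0.952). Dicer1, which cuts the precursor, was at 11.4 ± 2.76, 4.95 ± 1.46, 4.28 ± 0.188 and 8.48 ± 1.40 in the same order, with changes of -0.69 in teratoma and -0.84 in transplant against adult (adjusted p = 0.0337 and 0.014).

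Of the enzymes that uridylate let-7 precursors with LIN28, Zcchc11 (Tut4) was at 18.6 ± 2.59 in embryo, 10.7 ± 2.88 in teratoma, 5.25 ± 1.23 in transplant and 8.87 ± 1.42 in adult. It fell by 0.90 from teratoma to transplant (adjusted p = 0.0146) and by 1.66 from embryo to transplant (adjusted p = 0.000108). Zcchc6 (Tut7) was at 8.00 ± 2.68, 10.1 ± 1.82, 6.91 ± 0.966 and 10.6 ± 1.38, and was called in no comparison. Dis3l2, the nuclease that degrades uridylated precursors, had means between 5.18 and 5.42 in all 4 groups, with differences of at most 0.05.

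The exporter gene Xpo5 changed by -1.12 in adult, -0.999 in teratoma and -1.04 in transplant against embryo (adjusted p = 0.00211, 0.0103 and 0.00448). Tarbp2, which encodes a partner of Dicer, changed by -1.54 in adult and -1.17 in teratoma (adjusted p = 0.00311 and 0.0307), and its difference of -0.93 in transplant missed the threshold (adjusted p = 0.0522). The Argonaute gene Ago2 (listed as Eif2c2) was lowest in transplant at 14.7 ± 1.14, with changes of -0.57 against teratoma, -0.96 against adult and -1.12 against embryo (adjusted p = 0.0453, 0.0014 and 0.000466). Ago1 (Eif2c1) was lower in adult (-1.12 against embryo), and teratoma and transplant were each above adult by 1.08 (adjusted p = 0.00498, 0.00834 and 0.00847).

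Among 28 other genes often named as let-7 targets, both directions were seen. In adult against embryo 4 were higher and 14 lower (median -0.57, against -0.42 for all tested genes, of which 52.8% were called). In transplant against teratoma 0 were higher and 11 lower (median -0.62, against -0.28, with 22.6% called). The largest decreases from embryo to adult were in the nucleotide reductase gene Rrm2 (54.7 ± 5.67 to 1.53 ± 0.312 FPKM), the cyclin gene Ccnd2 (67.1 ± 17.7 to 2.72 ± 0.973) and the phosphatase gene Cdc25a (14.7 ± 2.66 to 2.70 ± 0.218). The largest increases were in the cytokine gene Il6, by 6.13, the growth regulator Myc, from 14.9 ± 2.56 to 207 ± 22.03, and the death receptor gene Fas (limma adjusted p = 4.28e-08, 2.24e-08 and 0.00305).

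From teratoma to transplant Rrm2, Prdm1 and Cdc25a had the largest decreases, -2.54, -2.17 and -1.67 (limma adjusted p = 0.000747, 0.000562 and 0.00184). Ccnd2 stayed at 41.4 ± 12.7 in transplant, 15.2-fold above adult (adjusted p = 6.37e-06). Transplant against adult had 6 higher and 8 lower of the 28 (median -0.35, against 0.23, with 44.2% called), and teratoma against embryo 7 higher and 6 lower (median 0.01, as over all genes, with 26.0% called).

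The 14 messages chosen as known to be bound by IGF2BP proteins, of which 13 were tested, also went in both directions. They had 4 higher and 5 lower in adult against embryo (median -0.06, against -0.42, with 52.8% of all tested genes called) and 0 higher and 5 lower in transplant against teratoma (median -0.45, against -0.28, with 22.6% called). Igf2, after which the proteins are named, was at 1296 ± 134 FPKM in embryo, 1685 ± 92.1 in teratoma, 865 ± 213 in transplant and 45.4 ± 7.02 in adult. In transplanted cells Igf2 was 19.1-fold above adult (limma adjusted p = 1.63e-07).

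H19, from the same imprinted locus, was at 1466 ± 168 in embryo and 14.7 ± 0.423, 1.17 ± 0.239 and 6.37 ± 0.186 in teratoma, transplant and adult. Cd44, a hyaluronan receptor, was higher in adult than in embryo by 3.18 and Ptgs2, for cyclooxygenase 2, by 4.05 (adjusted p = 4.62e-07 and 2.88e-06). Myc, which is on this list too, was also far higher in adult than in embryo. Whether Igf2bp levels bear on any message of this list was not tested.

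Genes whose levels ran most like a member's were ranked by Pearson's r of log2(FPKM + 1) over the 12 libraries, among 8085 genes. These values describe group structure that all libraries share and carry no test. Closest to Igf2bp1 were Bub1 (r = 0.997), Psip1 (0.997) and Incenp (0.994). Bub1, a mitotic checkpoint kinase, was at 12.7 ± 2.21 FPKM in embryo, 2.91 ± 0.629 in teratoma and 0.109 ± 0.0869 in transplant. Closest to Igf2bp3 were Igf2bp1 (0.991), Sema5b (0.99) and Cdc37 (0.989), and closest to Hmga2 were Smarce1 (0.987), Ddb1 (0.984) and St13 (0.982).

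Igf2bp2 ran most like Atp5b (0.983), N4bp2 (0.978) and Pds5a (0.974), Hmga1 like Tra2b (0.97), Pkn2 (0.964) and Utp3 (0.961), and Arid3a like Cic (0.948), Hras1 (0.922) and Tnpo2 (0.92). Tra2b, a splicing factor, was at 29.0 ± 6.12 in transplant against 57.1 ± 14.0 in teratoma, 58.8 ± 10.6 in embryo and 78.9 ± 5.62 in adult. Between members, r was 0.978 for Igf2bp1 and Hmga2, 0.854 for Igf2bp1 and Igf2bp2, and 0.176 for Igf2bp1 and Hmga1.

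Most proliferation markers moved with Igf2bp1, Igf2bp3 and Hmga2, and their part in these results was not tested. All 10 cell cycle genes of the list were lower than in embryo in adult, teratoma and transplant (medians -4.74, -1.29 and -4.11). Over all tested genes these medians were -0.42, 0.01 and -0.24, with 52.8%, 26.0% and 42.5% called. All 10 were lower in transplant than in teratoma (median -2.72, against -0.28, with 22.6% called). In teratoma against adult 9 were higher and 1 was not called (median 3.14, against 0.50, with 45.4% called). The gene not called was Pcna, at 84.2 ± 28.7 against 101 ± 6.06. Mki67 was at 39.5, 60.9 and 48.7 FPKM in embryo, 25.0, 16.0 and 20.2 in teratoma, 1.49, 2.08 and 3.50 in transplant and 2.91, 1.68 and 1.02 in adult. In transplant against adult, where Igf2bp2 and Hmga1 were lower, 3 of the 10 were higher and 1 was lower (median 0.45, against 0.23, with 44.2% called). That 1 was Pcna, at 31.1 ± 4.28 against 101 ± 6.06.

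Markers of other cell types differed between the groups as well, and their part in the members' levels was not tested. The 8 endoderm and epithelium markers (7 at 1 FPKM or more) summed to 181 to 469 FPKM in teratoma libraries, 4.02 to 19.2 in embryo, 0.634 to 1.99 in adult and 0.0963 to 0.435 in transplant, where Epcam, Afp, Ttr and Cldn6 were listed at 0. The 8 erythroid markers (5 at 1 FPKM or more) summed to 214 to 1927 in embryo and 6.11 to 42.0 in teratoma, and to at most 5.47 elsewhere, with Gata1 at 0 in all 12 libraries. The 8 neural markers (5 at 1 FPKM or more) were at 31.5 to 35.5 in embryo, 24.6 to 33.3 in teratoma, 11.3 to 16.1 in transplant and 4.65 to 8.91 in adult. Nes was the largest part of each sum, with means of 17.02, 17.05, 9.955 and 4.557 in the same order. Sox1 was at 0 in embryo and Elavl4 in transplant and adult.

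The 6 leukocyte markers summed to 38.1 to 115 in teratoma, 12.5 to 24.1 in transplant, 2.63 to 11.4 in embryo and 7.31 to 15.7 in adult, with Tyrobp at 0 in embryo and adult and Ptprc at 0 in adult. The 6 endothelial markers were at 35.4 to 41.8, 6.97 to 9.84, 16.5 to 27.3 and 14.1 to 18.9, none at 0 throughout a group. The 6 fibroblast markers, all present in each group, summed to 2037 to 3354 in teratoma, 3839 to 5953 in transplant, 1823 to 2633 in embryo and 962 to 1420 in adult. Col1a1 and Col3a1 made up most of each sum, with means of 2320 and 1516 in transplant. Dcn, Lum and Dpt were also highest there, while Pdgfra was at 33.2 ± 3.45 in transplant and 31.9 ± 9.44 in embryo. Igf2bp2 and Hmga1 were lowest in transplant, where the means of the myogenic markers Pax7, Myf5, Cdh15 and Chodl were also highest. How these levels bear on each other was not tested.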

How the data were processed

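RNA of sorted cells was made into libraries with a stranded total RNA kit for low input, per the labels' protocols. The authors deposited 1 table of FPKM for the 12 libraries, with no counts. The submitters' processing notes name the mm10 build and, without roles, the tools Partek, TopHat 0.7, CASAVA 1.8.2 and Cufflinks 2.2.1.0. How reads shared by near-identical genes were divided is not given in the sources used here.

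Repeated entries of 240 symbols were summed, which turned 23746 entries into 23284 genes. Values were transformed as log2(FPKM + 1), and genes at 1 FPKM or more in at least 3 libraries were kept. One limma model (limma 3.58.1, R 4.3.3, with a mean-variance trend) was fitted to the 4 groups, and p-values were adjusted over all genes tested by the Benjamini-Hochberg method. The fit was tested on simulated data. Median-ratio scaling, a pseudocount of 0.1, other filters, fits of only the groups compared, a replicate block and leaving out each library were the alternatives. The members and gene lists were chosen with earlier results of these data known. Beside the members, the text names let-7 processing genes, relatives of Arid3a and Trim71, up to 3 called genes in each direction with the largest change per list, and the 3 genes most like each member among those with a mean of 5 FPKM or more in at least 1 group, leaving out predicted, histone, ribosomal protein, mitochondrial and small RNA genes. Positions and 3′ UTRs are from GENCODE M21 (GRCm38), and microRNA sequences from RefSeq.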

Additional observations from a re-analysis of the deposited data

Results flagged for a closer look

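In 4 of the 6 members tested, the change from teratoma to transplant differed from the change from embryo to adult by limma's interaction term. The difference was 2.18 for Igf2bp1, 2.05 for Igf2bp3 and 1.78 for Hmga2 on the log2(FPKM + 1) scale, each with the smaller decline on the teratoma side. With a pseudocount of 0.1 that of Igf2bp1 was 3.50, and the call of Hmga2 was lost (2.00, adjusted p = 0.0991). For Hmga1 it was -3.28, with a decline only on the teratoma side. Adjusted p-values were 0.000823, 0.00551, 0.0248 and 0.00164 in that order. For Igf2bp1, Igf2bp3 and Hmga2, teratoma against embryo was already -1.92, -1.83 and -1.52, while transplant and adult differed by 0.23 to 0.26. Their interaction on this scale thus mainly restates the lower start of teratoma. With a pseudocount of 0.1 the end point adds to that of Igf2bp1, with transplant above adult by 1.38. The causes were not tested.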

How the results depend on the processing

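Of 743 refits of the 42 member changes, 702 kept direction and call, 24 lost a call, 11 gained one and 6 changed sign, and 26 changes were the same in every refit. Refits with another filter, a replicate block, only the groups compared, or without a library outside the pair leave a change's value as it was. They can alter its call but not its direction, so part of the agreement in direction was fixed in advance. The calls that moved belonged to Arid3a, Hmga1, Igf2bp2, Hmga2 and Igf2bp1. The sign changes were all of differences that passed in neither fit. On leaving out 1 library, Hmga1 in teratoma against embryo ranged from -0.44 (without teratoma replicate 1) to 0.51 and was -0.21 without embryo replicate 2. Arid3a there ranged from -0.22 (without embryo replicate 1) to 0.39, and Hmga2 in transplant against adult from -0.13 (without transplant replicate 2) to 0.57. The interaction of Arid3a ranged from -0.24 (without embryo replicate 3) to 0.37 and was -0.006 under median-ratio scaling. With the filter at a mean of 5 FPKM, which tests 7068 genes, 4370 genes were called in adult against embryo, 2084 in teratoma against embryo and 3720 in teratoma against adult. On leaving out 1 library, the count ranged from 2123 to 3184 in teratoma against embryo (lowest without teratoma replicate 2). In transplant against teratoma it ranged from 1524 (without teratoma replicate 1) to 3285, and was 1803 without transplant replicate 1. Leaving out a library left between 4 and 6 of the 6 members called in adult against embryo and between 3 and 4 in the interaction.

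With a replicate block, the members called numbered 5, 3, 5, 5, 2, 5 and 4 in the 6 comparisons and the interaction, as without it, and 2466 genes were called in transplant against teratoma. Libraries of the same number did not deviate together (18 pairs, r from -0.0951 to 0.0956), so the numbers were not treated as pairs. The depth is unknown, which limits what can be said of Lin28a, Lin28b, Trim71 and Arid3a, at under 1 FPKM in most libraries. Leaving out libraries was not run for the first 3.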
